A study of Mus musculus with 24 samples.

Results

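The comparison described here asks how the response to the first hour of lipopolysaccharide (LPS, a bacterial cell wall component) differs between 2 derivatives of RAW 264.7, a mouse macrophage line. The Nur77 line carries a construct for the nuclear receptor Nur77 and the GFP line carries one for green fluorescent protein, both switched on by doxycycline. Cells of both lines received doxycycline at 50 ng/ml for 18 h in every group, and then LPS at 500 ng/ml for 1 h or no LPS (0 h). Of the 24 RNA sequencing libraries of the series, 16 enter the contrast, 4 each from the Nur77 line at 1 h and 0 h and the GFP line at 1 h and 0 h. The remaining 8 libraries, collected at 5 h, do not enter the contrast. They help to estimate the spread, to choose, filter and scale the counts, and to describe 1 library that stood apart. Each construct is represented by 1 stable line, so effects of Nur77 and other differences between the lines cannot be told apart. The labels do not say that replicates were separate cultures, so p-values cover only the variation among these libraries, and it may be technical.

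LPS binds Toll-like receptor 4 on macrophages, and adaptor proteins then activate the NF-kB transcription factors and the MAP kinases. MAP kinases in turn raise AP-1, made of Fos and Jun proteins, and the Egr factors. Among the earliest induced genes are inhibitors that close the loop, such as IkB alpha (Nfkbia) and A20 (Tnfaip3). Nur77, encoded by Nr4a1, is itself an immediate early gene in macrophages and is known for restraining inflammatory transcription.

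Estimated counts summed over 25160 genes were 8134143 to 23775275 in the 16 libraries, and 12198 genes were tested. Levels are given as CPM (counts scaled to 1000000 per library), and compare samples, not genes of different length. The mouse gene Nr4a1 stood at 2.74, 3.71, 3.27 and 3.37 CPM in the Nur77 line and at 3.12, 2.46, 3.20 and 3.34 CPM in the GFP line at 0 h. These values overlap (log2 difference 0.10, edgeR adjusted p = 0.868), and since neither the species nor the sequence of the construct is stated, they do not check the labels. In each group 19 of 20 macrophage marker genes reached 1 CPM, with summed levels of 7845 to 9227 CPM in the Nur77 line at 1 h, 8352 to 8627 CPM in the Nur77 line at 0 h, 15209 to 16569 CPM in the GFP line at 1 h and 15113 to 15437 CPM in the GFP line at 0 h. All 5 epithelial markers were at 0, and the fibroblast and lymphocyte markers summed to under 1 CPM in each library and the 7 neutrophil markers to 1.07 to 4.58 CPM. Whether the lower macrophage marker sum of the Nur77 line plays a part in any result was not tested.

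Replicate 2 of the Nur77 line at 1 h stood apart. Its lowest correlation with a replicate was 0.976, against 0.989 among the other 3 libraries of that group. Between 5 h and 1 h of LPS, 1506 genes moved in the GFP line by a log2 value of 1 or more, and in replicate 2 73.6% of them deviated from the other 3 libraries in the direction of the 5 h change, against 36.2%, 33.8% and 32.4% for replicates 1, 3 and 4. The reference for replicates 1, 3 and 4 contains replicate 2, which pulls their shares down, so they are not an independent measure. Many results below are also given without replicate 2. Where only a value with all libraries is given, that library may still move it.

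For 138 of the 12198 genes tested (1.13%) the change with LPS differed between the lines. The interaction is the log2 change at 1 h in the Nur77 line minus that in the GFP line, and a gene was called at a Benjamini-Hochberg adjusted p under 0.05 in edgeR's quasi-likelihood test. It was higher in 75 genes (0.615%) and lower in 63 genes (0.516%), and reached 1 in 10 of the higher genes and -1 in 16 of the lower ones. The median was 0.67 over the higher calls, -0.64 over the lower calls and -0.01 over all genes tested. Within the lines, LPS changed 5410 genes (44.4%) in the Nur77 line and 2126 genes (17.4%) in the GFP line, while the lines differed in 6245 genes (51.2%) at 1 h and in 4870 genes (39.9%) at 0 h. Fewer genes were thus called for the interaction than for a response or a line difference. These counts do not show that few responses differed, because the interaction combines more group means and is estimated less precisely. Its unadjusted p in the same test was under 0.05 for 2440 genes (20%). All counts in this paragraph include the Nur77 line library that stood apart.

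Without Nur77 line 1 h replicate 2, 224 genes were called (1.82% of 12306), 97 higher (0.788%) and 127 lower (1.03%), and 122 of these were also called with all libraries, all with the same sign. The count was sensitive to other single libraries too. It was 1597 without replicate 1, 87 without replicate 3 and 614 without replicate 4 of the Nur77 line at 1 h, and 78, 83 and 85 without replicates 2, 3 and 4 of the Nur77 line at 0 h. It was 80 and 83 without replicates 2 and 4 of the GFP line at 1 h and 74 without replicate 4 of the GFP line at 0 h. In limma voom, which can weight each library by its quality, Nur77 line 1 h replicate 2 had the lowest weight (0.102). Weights were also low for replicates 1 and 3 of that group (0.361 and 0.318) and GFP line 0 h replicate 4 (0.316). The rest of the 16 libraries had 0.719 to 1.71. Of the 138 genes, 64 (31 higher, 33 lower) were called in each of the 16 omissions of 1 library, and 42 (18 higher, 24 lower) in all 25 alternative settings.

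**Figure D1:**
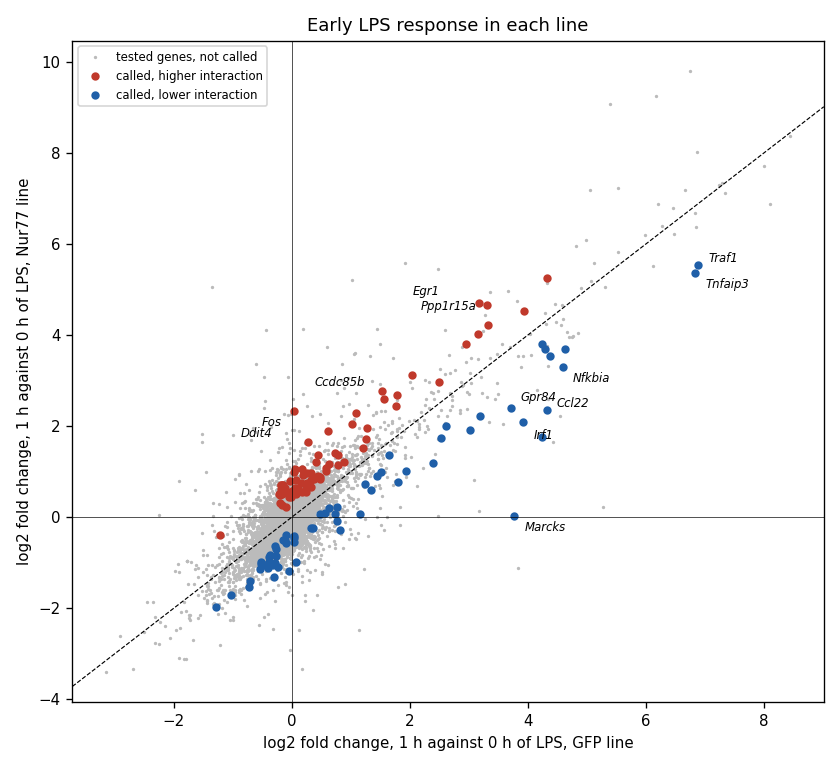
Log2 fold change at 1 h against 0 h of LPS in the Nur77 line (vertical axis) and in the GFP line (horizontal axis), 1 point per tested gene. The dashed line marks an equal response, and the 75 genes called with a higher interaction lie above it and the 63 with a lower interaction below it.

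A higher interaction did not mean a higher level. Of the 75 higher genes, 50 (66.7%) were lower in the Nur77 line before LPS, against 47.0% of all genes tested. After 1 h the gap on the log2 scale had changed sign in 38 genes. Of the others, 12 were still lower in the Nur77 line but by less, and 25 were higher at both times and by more at 1 h. Of the 63 lower genes, 48 (76.2%) were higher in the Nur77 line before LPS, against 53.0% of all genes, and the gap changed sign in 35, narrowed in 13 and widened in 15 that were already lower. The interaction equals the line difference at 1 h minus that at 0 h, so the same 0 h libraries enter both measures with opposite signs, a lean this way is built in, and nothing is read from these shares. Of all genes tested, LPS raised 22.5% and lowered 21.8% in the Nur77 line, and raised 9.75% and lowered 7.68% in the GFP line. It raised 40 of the 75 higher genes in both lines, raised 34 in the Nur77 line alone and lowered 1 in both. Among the 63 lower genes LPS raised 25 in both lines and lowered 15 in both, 14 were called in the Nur77 line alone, 7 in the GFP line alone and 2 in opposite directions.

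**Figure D2:**
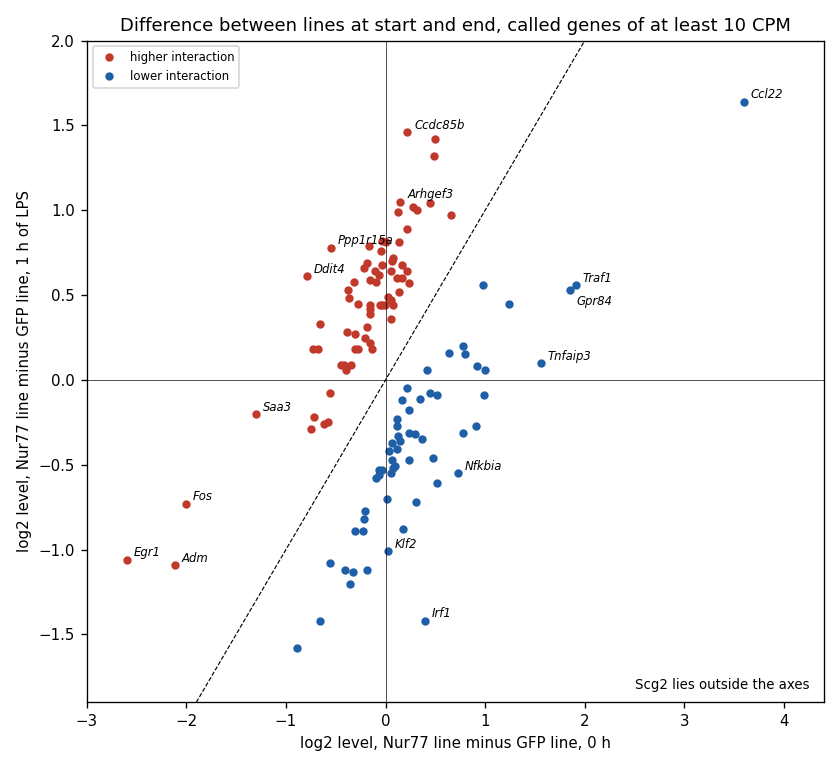
Log2 difference between the Nur77 line and the GFP line at 1 h of LPS (vertical axis) against that at 0 h (horizontal axis) for called genes that reached 10 CPM, with the dashed line marking no interaction and Scg2 outside the axes. Fos and Egr1 stay below 0 at both times while Tnfaip3 starts at 1.56 and ends at 0.10.

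Promoter sequences are shown for the 2 higher and 2 lower named genes with the smallest adjusted p, so that the motif matches described after them can be seen in place. They are RefSeq sequences of the build GRCm38.p6, from 250 bases before to 50 bases after the transcription start, all on the minus strand, and capitals mark matches to the motifs searched. Nfkbia lies at chr12:55492598-55492897, Tnfaip3 at chr10:19015361-19015660, Ddit4 at chr10:59951721-59952020 and Ppp1r15a at chr7:45526219-45526518.
Nfkbia: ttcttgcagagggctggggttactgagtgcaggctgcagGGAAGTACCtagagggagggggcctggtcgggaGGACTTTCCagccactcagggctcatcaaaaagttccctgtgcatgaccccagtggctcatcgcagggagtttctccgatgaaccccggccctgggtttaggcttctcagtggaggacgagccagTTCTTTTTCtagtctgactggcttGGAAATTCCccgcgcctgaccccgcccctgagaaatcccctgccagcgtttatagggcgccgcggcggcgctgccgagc
Tnfaip3: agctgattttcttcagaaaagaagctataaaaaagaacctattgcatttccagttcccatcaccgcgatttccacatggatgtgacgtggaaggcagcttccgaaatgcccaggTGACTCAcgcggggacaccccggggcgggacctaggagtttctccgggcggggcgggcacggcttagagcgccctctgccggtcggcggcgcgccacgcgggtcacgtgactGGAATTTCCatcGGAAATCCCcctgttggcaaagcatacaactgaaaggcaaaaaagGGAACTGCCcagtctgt
Ddit4: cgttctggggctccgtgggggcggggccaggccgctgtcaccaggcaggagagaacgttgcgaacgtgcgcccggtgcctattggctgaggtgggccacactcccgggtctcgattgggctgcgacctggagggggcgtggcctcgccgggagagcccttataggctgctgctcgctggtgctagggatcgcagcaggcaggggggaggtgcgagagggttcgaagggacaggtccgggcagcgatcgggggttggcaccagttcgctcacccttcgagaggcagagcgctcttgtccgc
Ppp1r15a: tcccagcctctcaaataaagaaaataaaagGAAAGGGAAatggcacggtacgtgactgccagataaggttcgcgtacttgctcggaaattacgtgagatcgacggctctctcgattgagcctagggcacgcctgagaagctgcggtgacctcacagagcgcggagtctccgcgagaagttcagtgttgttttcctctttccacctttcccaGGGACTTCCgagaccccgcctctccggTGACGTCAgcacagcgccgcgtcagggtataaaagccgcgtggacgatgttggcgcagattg
The 5 motifs were an NF-kB site (GGNNNTTCC), an AP-1 site (TGANTCA), a cAMP response element (TGACGTCA), the core of the interferon-stimulated response element (GAAANNGAA) and NBRE, the monomer site of Nur77 (AAAGGTCA), each read on both strands with overlaps allowed. Positions are those of a match's first base on the printed strand, negative before the start.

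In the Nfkbia promoter the NF-kB letters matched at -211, -178 and -29 and the interferon core at -53. The Tnfaip3 promoter held NF-kB letters at -24, -12 and 34 and an AP-1 match at -136. The Ppp1r15a promoter held a cAMP response element at -12, NF-kB letters at -39 and the interferon core at -220, and the Ddit4 window matched none of the 5. Of 27025 promoters of this length 18.4% held the NF-kB letters, as did 17 of the 54 promoters found for lower genes (31.5%) and 10 of the 63 found for higher genes (15.9%). The 27025 promoters are not limited to the genes tested here, so they are not a matched background. The AP-1 letters were in 7.92% of all promoters, in 3 of those of lower genes (5.56%) and in 1 of those of higher genes (1.59%). The cAMP response element was in 1.85% of all promoters, in 3 of the lower ones (5.56%) and in 4 of the higher ones (6.35%). In the same order, the interferon core was in 8.58%, 7.41% and 7.94%, and NBRE in 1.46%, 0% and 0%. These are matches of letters and no binding was measured.

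On the log2 scale 6 genes of NF-kB and its feedback rose less in the Nur77 line than in the GFP line. These were Nfkbia, Nfkbie, Relb, Tnfaip3, Traf1 and Tnip3, each higher in the Nur77 line at 0 h. Most genes of their lists were not called. Of 15 NF-kB subunit and IkB genes 3 had a lower interaction (Nfkbia, Nfkbie and Relb), none a higher one and 12 were not called, with a median of -0.30 and 5 positive values. Of 14 genes of ubiquitin feedback on NF-kB 3 were lower (Tnfaip3, Traf1 and Tnip3) and 11 not called, with a median of -0.06 and again 5 positive values. Over all genes tested 0.516% were called lower and 0.615% higher, with a median of -0.01, and these lists were not tested as sets. Without replicate 2 the NF-kB and IkB list again had 3 lower calls and none higher, and the ubiquitin list had 4 lower and 1 higher, against 1.03% lower and 0.788% higher over all genes.

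Nfkbia encodes IkB alpha, which holds NF-kB in the cytoplasm and lies on chromosome 12 from 55489409 to 55492647 (NM_010907). It had 756, 877, 743 and 699 CPM in the Nur77 line at 1 h, against 74.6, 80.5, 77.5 and 79.0 CPM in the Nur77 line at 0 h. In the GFP line it had 1092, 1141, 1148 and 1132 CPM at 1 h, against 42.2, 46.4, 44.5 and 54.0 CPM at 0 h. All 4 Nur77 libraries lay above the GFP libraries at 0 h and below them at 1 h. The log2 rise was 3.30 in the Nur77 line and 4.59 in the GFP line, an interaction of -1.29 (SE 0.09, adjusted p = 2.11e-09), and -1.35 without replicate 2.

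Tnfaip3 encodes A20, a ubiquitin-editing enzyme that shuts down NF-kB signalling (NM_009397, chromosome 10, 19000910 to 19015410). Its levels were 1021, 825, 986 and 934 CPM in the Nur77 line at 1 h, against 24.2, 23.4, 23.2 and 20.4 CPM in that line at 0 h. GFP line libraries held 865, 871, 877 and 894 CPM at 1 h, against 8.28, 8.55, 7.66 and 6.68 CPM at 0 h. The lines did not overlap at 0 h (log2 difference 1.56, adjusted p = 2.27e-14) and overlapped at 1 h (0.10, adjusted p = 0.18). The interaction was -1.46 (SE 0.10, adjusted p = 1.99e-09), and -1.40 without replicate 2.

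Traf1, a signalling adaptor for the tumour necrosis factor receptor family on chromosome 2, started near the limit of counting in the GFP line. It had 179, 172, 146 and 156 CPM in the Nur77 line at 1 h, against 3.14, 3.44, 3.75 and 3.70 CPM in the Nur77 line at 0 h. Its GFP line values were 97.3, 109, 119 and 117 CPM at 1 h, against 0.507, 0.821, 1.18 and 0.993 CPM at 0 h, which were 6, 12, 28 and 22 counts. The Nur77 line was higher without overlap at both times, by 0.56 on the log2 scale at 1 h and by 1.91 at 0 h, an interaction of -1.35 (SE 0.18, adjusted p = 0.000107). Tnip3, which encodes a partner of A20, averaged 366 ± 61.0 CPM in the Nur77 line and 269 ± 10.3 CPM in the GFP line at 1 h, and 110 ± 4.10 CPM in the Nur77 line and 46.3 ± 2.97 CPM in the GFP line at 0 h (SD, n = 4 each, as for all such values below). Its interaction was -0.79 (SE 0.11, adjusted p = 0.00012). Both calls held in all 25 alternative settings.

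Relb, an NF-kB subunit of the noncanonical pathway, averaged 47.5 ± 11.2 CPM in the Nur77 line and 45.3 ± 4.02 CPM in the GFP line at 1 h, where the libraries overlapped, and 23.6 ± 1.95 CPM in the Nur77 line and 11.8 ± 0.810 CPM in the GFP line at 0 h, where they did not. The interaction was -0.94 (SE 0.17, adjusted p = 0.00322). Nfkbie, which encodes IkB epsilon, had 89.3, 36.9, 74.2 and 82.3 CPM in the Nur77 line and 87.3, 84.5, 86.2 and 94.2 CPM in the GFP line at 1 h, with replicate 2 of the Nur77 line the lowest. At 0 h it averaged 18.7 ± 2.14 CPM in the Nur77 line and 10.9 ± 0.494 CPM in the GFP line. Its interaction of -1.09 (SE 0.24, adjusted p = 0.0215) was -0.88 without replicate 2 (adjusted p = 7.95e-06). The call was lost without Nur77 line 0 h replicate 2 or 4, GFP line 1 h replicate 4 or GFP line 0 h replicate 4, with adjusted p from 0.0524 to 0.0751 and interactions of -1.05, -1.03, -1.06 and -1.07.

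Irf1, a transcription factor of the interferon response on chromosome 11 (NM_008390, 53770014 to 53778374), showed a lower interaction that ended in a lower level. It had 109, 35.5, 98.2 and 98.5 CPM in the Nur77 line at 1 h, against 20.5, 21.1, 20.5 and 18.2 CPM in the Nur77 line at 0 h. Values in the GFP line were 219, 218, 240 and 238 CPM at 1 h, against 16.6, 15, 15.1 and 14.2 CPM at 0 h. Every Nur77 library was below every GFP library at 1 h, and replicate 2 was the lowest by far. The interaction was -1.82 (SE 0.29, adjusted p = 0.00152) with all libraries and -1.57 (SE 0.09, adjusted p = 7.32e-12) without replicate 2. Of the 30 interferon response genes tested Irf1 was the lower call, and Ifih1, the sensor MDA5 of double-stranded RNA, the higher one (all genes, 0.516% lower and 0.615% higher), with a list median of 0.02. Without replicate 2 there were 2 higher calls and 1 lower (all genes, 0.788% higher and 1.03% lower).

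Ccl22, a chemokine that attracts T cells through the receptor CCR4, had the most negative interaction among genes that reached 10 CPM. It stood at 11.6, 13.8, 13.2 and 10.9 CPM in the Nur77 line at 1 h, against 2.26, 1.99, 2.68 and 2.72 CPM in the Nur77 line at 0 h. The GFP line had 5.10, 3.87, 3.57 and 3.81 CPM at 1 h, against 0, 0.274, 0.168 and 0.271 CPM at 0 h, or 0, 4, 4 and 6 counts. The Nur77 line was higher without overlap at both times, and its interaction of -1.97 (SE 0.32, adjusted p = 0.00118) rests on these low counts at the start of the GFP line. The receptor gene Gpr84, which senses medium-chain fatty acids, behaved likewise from higher counts. It had 236, 218, 256 and 251 CPM in the Nur77 line at 1 h, against 48.5, 47.4, 45.0 and 42.0 CPM in that line at 0 h. GFP line libraries held 148, 162, 173 and 183 CPM at 1 h, against 12.8, 13.5, 12.4 and 12.2 CPM at 0 h, with no overlap between the lines at either time. Its interaction was -1.32 (SE 0.10, adjusted p = 2.11e-09), and -1.27 without replicate 2.

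**Figure D3:**
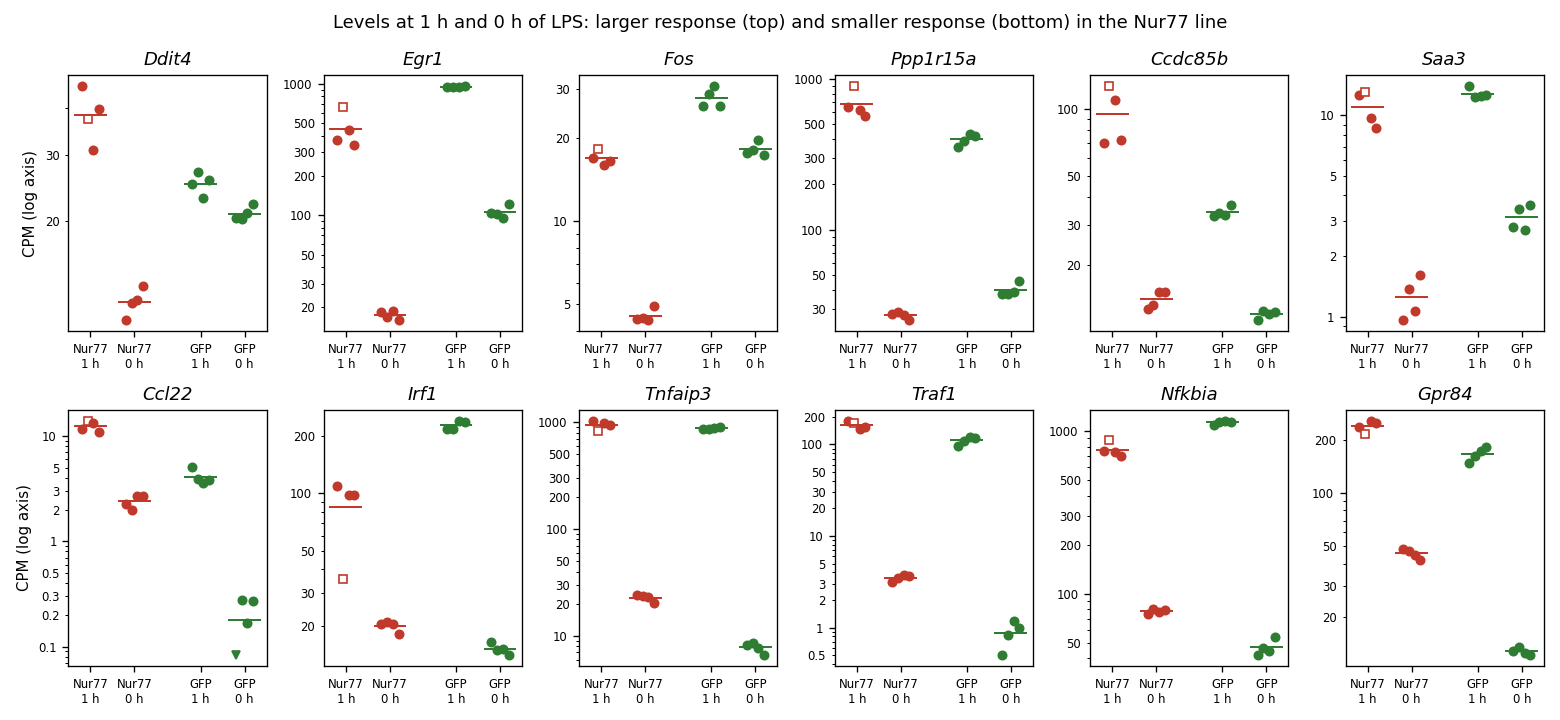
CPM (log axis) of each library for the 6 higher (top) and 6 lower (bottom) genes that rank first by the smaller of their interactions with and without replicate 2, for the Nur77 line at 1 h and 0 h (red) and the GFP line at 1 h and 0 h (green), with bars at the group means. The open square is Nur77 line 1 h replicate 2, and the triangle is a library with 0 CPM of Ccl22, drawn below the lowest value because a log axis has no 0.

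Klf2 and Dusp1 overlapped between the lines at 0 h and were lower in every Nur77 library at 1 h. Klf2, a transcription factor that quiets myeloid cells, had 20.7, 28.9, 17.5 and 18.3 CPM in the Nur77 line and 35.1, 45.4, 46.3 and 44.3 CPM in the GFP line at 1 h. At 0 h the values overlapped, with means of 12.5 ± 1.56 CPM in the Nur77 line and 12.3 ± 0.465 CPM in the GFP line. The interaction was -1.03 (SE 0.18, adjusted p = 0.00173), and -1.21 without replicate 2. Dusp1, the phosphatase that inactivates p38 and JNK, had 49.0, 34.9, 47.2 and 43.6 CPM in the Nur77 line and 90.9, 91.9, 100 and 97.2 CPM in the GFP line at 1 h, from overlapping values of 2.80 to 4.4 CPM in the Nur77 line and 3.08 to 4.54 CPM in the GFP line at 0 h. Its interaction was -0.93 (SE 0.19, adjusted p = 0.00917), and -0.83 without Nur77 line 1 h replicate 2. The call was lost without Nur77 line 0 h replicate 2 (-0.77, adjusted p = 0.0608). Zc3h12c, of the Regnase family of mRNA-cleaving enzymes, averaged 126 ± 25.2 CPM in the Nur77 line and 174 ± 30.5 CPM in the GFP line at 1 h, where libraries overlapped, and 26.8 ± 2.49 CPM in the Nur77 line and 19.1 ± 1.66 CPM in the GFP line at 0 h, where they did not. Its interaction of -0.95 (SE 0.18, adjusted p = 0.00593) was -0.64 (adjusted p = 0.0608) with limma voom and quality weights.

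Other lower genes were receptors and signalling proteins. Tnfrsf1b, the tumour necrosis factor receptor 2 gene, stood at 79.2, 85.4, 67.6 and 73.5 CPM in the Nur77 line at 1 h, against 52.1, 48.3, 52.0 and 50.7 CPM in that line at 0 h. In the GFP line it had 194, 202, 206 and 213 CPM at 1 h, against 81.6, 82.0, 82.6 and 73.7 CPM at 0 h. It was lower in the Nur77 line at both times and its gap widened (interaction -0.76, SE 0.09, adjusted p = 1.22e-05). Rgs2, a regulator of G protein signalling, fell with LPS in both lines, and on the log2 scale by more in the Nur77 line. It had 17.4 ± 1.43 CPM at 1 h against 68.0 ± 2.07 CPM at 0 h in the Nur77 line. In the GFP line it had 51.6 ± 3.05 CPM at 1 h against 126 ± 8.93 CPM at 0 h (interaction -0.68, SE 0.10, adjusted p = 0.000167). These and Gpr84 were the 3 lower calls with all libraries among 21 genes of receptors, adhesion and costimulation, with none higher, against 0.516% lower and 0.615% higher over all genes. The list median of -0.01 was that of all genes. Without replicate 2 the list had 5 lower calls and 1 higher (all genes, 1.03% and 0.788%).

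Klhl25, an adaptor of a ubiquitin ligase, fell in the Nur77 line, to 7.70 ± 1.13 CPM at 1 h against 15.3 ± 2.41 CPM at 0 h, and had 14.3 ± 1.19 CPM at 1 h and 13.6 ± 2.78 CPM at 0 h in the GFP line, a change there that was not called (interaction -1.07, adjusted p = 0.00573). Ralgds, an exchange factor for Ral GTPases, stood in the Nur77 line at 53.3 ± 9.21 CPM at 1 h and 50.5 ± 1.24 CPM at 0 h, a change that was not called (adjusted p = 0.482). In the GFP line it rose, to 56.8 ± 3.11 CPM at 1 h against 25.5 ± 2.37 CPM at 0 h. Its interaction was -1.07 (SE 0.13, adjusted p = 1.37e-05), and -0.96 without replicate 2.

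Tlr2, the receptor of bacterial lipopeptides, was the single call among 25 genes of the Toll-like receptor chain (1.13% of all genes), and it depended on single libraries. The list had 2 calls without replicate 2 (1.82% of all genes). Tlr2 was among the lower genes. Its levels were 677, 233, 573 and 671 CPM in the Nur77 line and 634, 652, 664 and 653 CPM in the GFP line at 1 h, so that replicate 2 of the Nur77 line stood at its 0 h level, where the Nur77 line averaged 234 ± 3.71 CPM and the GFP line 124 ± 10.5 CPM. The interaction was -1.19 (SE 0.27, adjusted p = 0.0331) with all libraries and -0.94 (SE 0.09, adjusted p = 6.15e-08) without replicate 2. With replicate 2 kept, the call was lost in 10 of the 16 omissions of 1 library (adjusted p from 0.0549 to 0.0961, interactions from -1.22 to -1.13). These were replicates 1, 2, 3 and 4 of the Nur77 line at 0 h, replicate 3 of the Nur77 line at 1 h, replicates 2, 3 and 4 of the GFP line at 1 h and replicates 1 and 4 of the GFP line at 0 h.

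Several immediate early and stress genes rose more on the log2 scale in the Nur77 line than in the GFP line. Of 20 immediate early transcription factor genes 3 had a higher interaction (Egr1, Btg2 and Cebpb), 1 a lower one (Klf2) and 16 were not called, with a median of 0.08. Of 19 stress response genes 3 were higher (Ddit4, Ppp1r15a and Herpud1) and none lower, with a median of 0.21, and of 16 genes of MAP kinase feedback and the Gadd45 family 2 were higher (Ppp1r15a and Spry2) and 1 lower (Dusp1), with a median of 0.10. Over all genes tested 0.615% were called higher and 0.516% lower, with a median of -0.01. Without replicate 2 the immediate early list had 4 higher and 4 lower calls, so that it leaned to neither side, and the MAP kinase feedback list had 4 higher and 2 lower. The stress list kept its count of 3 higher and none lower. The shares over all genes were then 0.788% higher and 1.03% lower.

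Ddit4 encodes REDD1, a stress-induced inhibitor of the growth kinase mTORC1 (NM_029083, chromosome 10, 59949675 to 59951770). It had 45.8, 37.5, 30.9 and 39.9 CPM in the Nur77 line at 1 h, against 10.9, 12.1, 12.3 and 13.4 CPM in the Nur77 line at 0 h. Values in the GFP line were 25.1, 27.0, 23.0 and 25.7 CPM at 1 h, against 20.4, 20.2, 21.0 and 22.2 CPM at 0 h. The Nur77 line was below the GFP line in every library at 0 h and above it in every library at 1 h. Its log2 rise was 1.66 in the Nur77 line, and the change of 0.27 in the GFP line was not called (adjusted p = 0.0514). The interaction was 1.39 (SE 0.14, adjusted p = 5.61e-07), and 1.40 without replicate 2.

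Ppp1r15a encodes GADD34, which directs a phosphatase to the translation factor eIF2 alpha (NM_008654, chromosome 7, 45522917 to 45526268). It stood at 656, 892, 625 and 571 CPM in the Nur77 line at 1 h, against 27.9, 28.7, 27.4 and 25.4 CPM in that line at 0 h. The GFP line had 355, 391, 430 and 416 CPM at 1 h, against 37.5, 37.9, 38.8 and 45.9 CPM at 0 h. This gene too was lower without overlap in the Nur77 line at 0 h and higher without overlap at 1 h. Its interaction was 1.34 (SE 0.15, adjusted p = 3.43e-06), and 1.19 without replicate 2.

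Egr1, a zinc finger factor induced by MAP kinases through the serum response factor, rose from a far lower start in the Nur77 line and did not reach the GFP line. It had 370, 662, 445 and 340 CPM in the Nur77 line at 1 h, against 18.2, 16.9, 18.7 and 16 CPM in that line at 0 h. GFP line libraries held 947, 950, 944 and 951 CPM at 1 h, against 103, 102, 95.1 and 122 CPM at 0 h. The Nur77 line was lower without overlap at both times, by 1.06 on the log2 scale at 1 h and by 2.60 at 0 h. The interaction was 1.54 (SE 0.19, adjusted p = 4.67e-05), and 1.30 (adjusted p = 2.79e-08) without replicate 2, which was the highest of its group.

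Fos, the founding subunit of AP-1, showed the same form at lower levels. It had 16.9, 18.2, 16 and 16.5 CPM in the Nur77 line at 1 h, against 4.43, 4.47, 4.4 and 4.93 CPM in that line at 0 h. In the GFP line it had 26.0, 28.9, 30.7 and 26.1 CPM at 1 h, against 17.7, 18.1, 19.7 and 17.3 CPM at 0 h. The Nur77 line was lower in every library at both times, and the log2 rise of Fos was 1.89 there and 0.62 in the GFP line. The interaction was 1.27 (SE 0.16, adjusted p = 3.5e-05), and 1.23 without replicate 2. Fos was the single call among 17 AP-1 and related subunit genes (1.13% of all genes were called), whose median interaction was 0.29. Without replicate 2 the list had 5 higher calls and 1 lower call and a median of 0.12, against 0.788% higher and 1.03% lower over all genes.

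Btg2, an antiproliferative cofactor, and Cebpb, the C/EBP beta factor of inflammatory macrophages, completed the higher calls among immediate early factors. Btg2 had 178, 110, 141 and 152 CPM in the Nur77 line and 127, 126, 132 and 128 CPM in the GFP line at 1 h, with overlap. At 0 h it averaged 8.98 ± 0.990 CPM in the Nur77 line and 14.4 ± 1.09 CPM in the GFP line, without overlap. Its interaction was 0.86 (SE 0.15, adjusted p = 0.0029), and 0.98 without Nur77 line 1 h replicate 2. Cebpb averaged 118 ± 11.0 CPM in the Nur77 line and 97.9 ± 6.44 CPM in the GFP line at 1 h, and 46.1 ± 2.28 CPM in the Nur77 line and 57.1 ± 1.86 CPM in the GFP line at 0 h (0.58, SE 0.09, adjusted p = 0.000426). Zfp36, encoding tristetraprolin, which marks cytokine mRNAs for decay, stood at 804, 751, 764 and 656 CPM in the Nur77 line and at 354, 343, 373 and 377 CPM in the GFP line at 1 h. It was higher without overlap at both times, with 32.2 ± 1.64 CPM in the Nur77 line and 23.4 ± 2.49 CPM in the GFP line at 0 h, and its interaction was 0.59 (SE 0.10, adjusted p = 0.00152). With Zc3h12c as the lower call, 8 mRNA decay genes thus held 1 call in each direction and a median of 0.16. Over all genes tested 0.615% were called higher and 0.516% lower.

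Ccdc85b, a small coiled-coil protein gene, had 70.5, 126, 110 and 72.5 CPM in the Nur77 line at 1 h, against 12.6, 13.2, 15.1 and 15 CPM in that line at 0 h. Values in the GFP line were 32.9, 34.1, 33.4 and 37.0 CPM at 1 h, against 11.3, 12.4, 12 and 12.3 CPM at 0 h. The interaction was 1.24 (SE 0.20, adjusted p = 0.00137), and 1.08 without Nur77 line 1 h replicate 2. It shares 1163 exon bases on the opposite strand with the AP-1 gene Fosl1 on chromosome 19, and the strand setting of the counting is not given, so reads of the pair cannot be told apart. Fosl1 had 73.0, 137, 120 and 78.8 CPM in the Nur77 line and 28.9, 31.8, 30.7 and 35.4 CPM in the GFP line at 1 h, with the same order of Nur77 libraries. At 0 h it averaged 7.65 ± 1.14 CPM in the Nur77 line and 4.26 ± 0.681 CPM in the GFP line. Its interaction of 0.85 was not called (adjusted p = 0.0873). It was called without replicate 1 (adjusted p = 0.00999) or replicate 4 (adjusted p = 0.0319) of the Nur77 line at 1 h. In all, 12 of the 138 called genes share exon bases with a gene of at least 1 CPM on the opposite strand, among them Ppp1r15a with 11 bases and Zc3h12c with 117.

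Of 19 inflammatory effector genes 4 had a higher interaction, Saa3, Sod2 and Clec4e among them, and none a lower one, against 0.615% higher and 0.516% lower over all genes. The list median was 0.53 with all libraries and 0.21 without replicate 2, when 5 were higher and 1 lower, and the median of all genes was -0.01 in both cases. The shares over all genes without replicate 2 were 0.788% higher and 1.03% lower. Saa3, an acute phase protein gene, had 12.6, 13, 9.72 and 8.61 CPM in the Nur77 line at 1 h, against 0.967, 1.38, 1.07 and 1.62 CPM in that line at 0 h. The GFP line had 13.9, 12.3, 12.5 and 12.6 CPM at 1 h, against 2.79, 3.42, 2.69 and 3.57 CPM at 0 h, so the lines overlapped at 1 h and not at 0 h. Its interaction was 1.09 (SE 0.21, adjusted p = 0.00593), with a call that was lost in voom with quality weights (0.85, adjusted p = 0.106). Clec4e, the mycobacterial glycolipid receptor Mincle, averaged 1706 ± 143 CPM in the Nur77 line and 1431 ± 60.4 CPM in the GFP line at 1 h, and 219 ± 7.56 CPM in the Nur77 line and 254 ± 23.3 CPM in the GFP line at 0 h (0.46, SE 0.09, adjusted p = 0.0065). Sod2, the mitochondrial superoxide dismutase, had a small and narrow difference, at 240 ± 2.59 CPM in the Nur77 line and 212 ± 4.29 CPM in the GFP line at 1 h (0.32, SE 0.06, adjusted p = 0.00543). At 0 h it was lower in the Nur77 line, at 104 ± 1.47 CPM against 114 ± 4.42 CPM in the GFP line.

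Adm, the gene of the vasodilator peptide adrenomedullin, had 12.9, 13.7, 15.1 and 10.9 CPM in the Nur77 line at 1 h, against 2.18, 2.27, 2.26 and 2.08 CPM in that line at 0 h. GFP line libraries held 23.2, 29.2, 32.4 and 27.9 CPM at 1 h, against 8.87, 9.44, 8 and 11.7 CPM at 0 h. Like Fos and Egr1 it was lower in every Nur77 library at both times, with an interaction of 1.02 (SE 0.18, adjusted p = 0.00322) that was not called in voom (0.76, adjusted p = 0.0667). Arhgef3, a guanine nucleotide exchange factor, overlapped between the lines at 0 h, with 25.5 ± 1.48 CPM in the Nur77 line and 22.9 ± 1.75 CPM in the GFP line. At 1 h it stood at 139, 189, 171 and 160 CPM in the Nur77 line and at 78.9, 77.6, 78.2 and 82.3 CPM in the GFP line (0.90, SE 0.10, adjusted p = 1.14e-05). Mylip, a ubiquitin ligase that degrades the LDL receptor, fell in both lines and by less in the Nur77 line. It had 16.5 ± 3.38 CPM at 1 h against 21.5 ± 0.956 CPM at 0 h in the Nur77 line. In the GFP line it had 6.45 ± 0.833 CPM at 1 h against 15.3 ± 1.54 CPM at 0 h. Its interaction was 0.84 (SE 0.17, adjusted p = 0.00839), and 0.97 without Nur77 line 1 h replicate 2, the lowest library of its group.

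Mthfs, a folate enzyme, and Eif4ebp3, a repressor of cap-dependent translation, rose in the Nur77 line and were not called in the GFP line. Mthfs had 12.4 ± 2.1 CPM at 1 h and 6.01 ± 0.619 CPM at 0 h in the Nur77 line, and 9.79 ± 1.12 CPM at 1 h and 9.40 ± 1.39 CPM at 0 h in the GFP line. Its interaction was 0.99 (SE 0.16, adjusted p = 0.00137), and 0.87 without Nur77 line 1 h replicate 2. Eif4ebp3 had 16.5 ± 1.65 CPM at 1 h and 10.1 ± 1.49 CPM at 0 h in the Nur77 line, and 11.0 ± 0.337 CPM at 1 h and 12.5 ± 1.89 CPM at 0 h in the GFP line (0.90, SE 0.16, adjusted p = 0.00207). Ccl3, a chemokine that attracts monocytes, had 1073, 1958, 1181 and 1082 CPM in the Nur77 line and 923, 926, 972 and 964 CPM in the GFP line at 1 h, and 94.3 ± 3.99 CPM in the Nur77 line and 122 ± 12.5 CPM in the GFP line at 0 h. Its interaction was 0.86 (SE 0.18, adjusted p = 0.0127) with all libraries and 0.61 (adjusted p = 2.56e-05) without replicate 2, the highest library. Among the 15 chemokine genes tested it was the higher call and Ccl22 the lower call, and the median was 0.20. Without replicate 2 there were 1 higher and 2 lower calls and the median was 0.00. Over all genes tested 0.615% were called higher and 0.516% lower, and without replicate 2 0.788% and 1.03%.

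With all libraries, Herpud1, of protein degradation from the endoplasmic reticulum, Ifih1 and Spry2, an inhibitor of receptor tyrosine kinase signalling, had calls near the threshold. Herpud1 averaged 247 ± 10.6 CPM in the Nur77 line and 126 ± 7.94 CPM in the GFP line at 1 h, and 86.4 ± 2.15 CPM in the Nur77 line and 54.6 ± 2.90 CPM in the GFP line at 0 h (interaction 0.32, SE 0.08, adjusted p = 0.0396). Ifih1 averaged 87.9 ± 17.4 CPM in the Nur77 line and 47.5 ± 6.27 CPM in the GFP line at 1 h, and 22.6 ± 2.31 CPM in the Nur77 line and 19.4 ± 1.60 CPM in the GFP line at 0 h (0.68, SE 0.16, adjusted p = 0.0331). Spry2 had 14.9, 23.7, 15.7 and 15.2 CPM in the Nur77 line and 8.59, 8.01, 9.23 and 8.52 CPM in the GFP line at 1 h (0.74, SE 0.18, adjusted p = 0.0396, and 0.56 without replicate 2). At 0 h it averaged 8.76 ± 0.494 CPM in the Nur77 line and 7.24 ± 0.819 CPM in the GFP line. Without Nur77 line 1 h replicate 2 the adjusted p was 9.51e-05 for Ifih1 (interaction 0.81), 0.0179 for Herpud1 (0.33) and 0.023 for Spry2. With that library kept, each call was lost in 9 of the 16 omissions of 1 library. The adjusted p was then 0.0521 to 0.102 for Herpud1, 0.0534 to 0.0929 for Ifih1 and 0.0523 to 0.0981 for Spry2. All 3 were lost without replicates 2, 3 or 4 of the Nur77 line at 0 h, replicate 2 of the GFP line at 1 h or replicate 4 of the GFP line at 0 h. Herpud1 was also lost without Nur77 line 1 h replicate 3, Nur77 line 0 h replicate 1, GFP line 1 h replicate 1 or GFP line 0 h replicate 3. Ifih1 was also lost without Nur77 line 1 h replicate 3, GFP line 1 h replicate 3 or 4 or GFP line 0 h replicate 3, and Spry2 without Nur77 line 0 h replicate 1, GFP line 1 h replicate 3 or 4 or GFP line 0 h replicate 1.

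**Figure D4:**
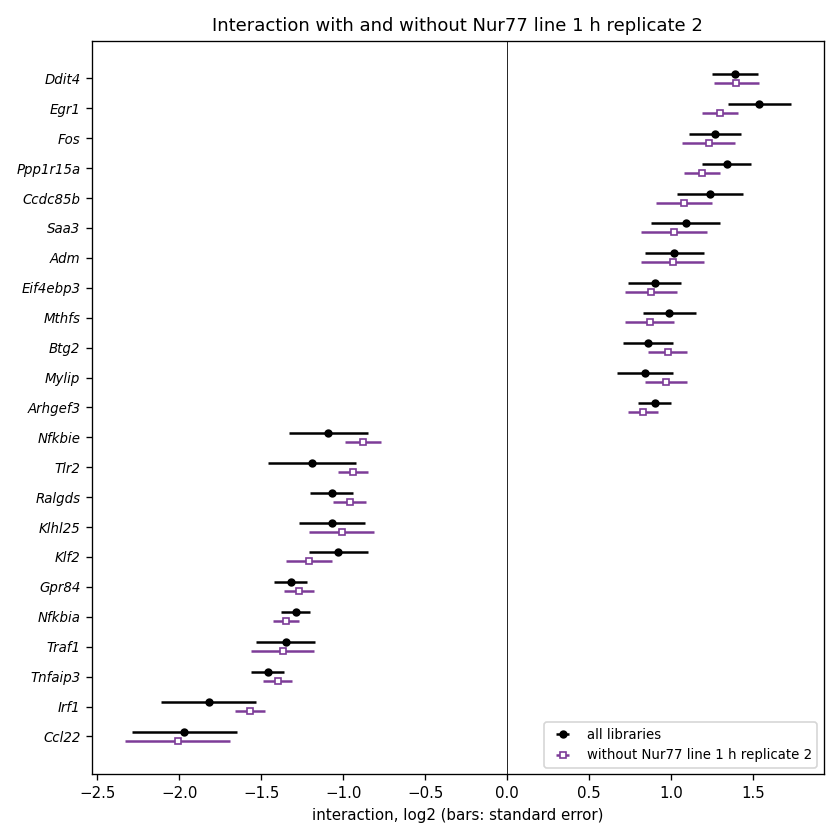
Interaction (log2, horizontal axis) with its standard error for 23 higher and lower genes named by the rule, with all libraries (filled circles) and without Nur77 line 1 h replicate 2 (open squares). All 23 keep their side of 0, and Irf1 lies at -1.82 with all libraries and at -1.57 without the library.

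Of the cytokine and immediate early genes not called with all libraries, several were called without replicate 2. Jun, the partner of Fos, had 356, 659, 393 and 322 CPM in the Nur77 line and 416, 439, 456 and 462 CPM in the GFP line at 1 h, with overlap. At 0 h it averaged 84.3 ± 3.85 CPM in the Nur77 line and 61.2 ± 4.35 CPM in the GFP line, without overlap. Its interaction was -0.50 (adjusted p = 0.158), and -0.77 (adjusted p = 1.78e-06) without replicate 2, the highest library. Tnf, the tumour necrosis factor gene, had 4096, 6359, 3234 and 3369 CPM in the Nur77 line and 2358, 2419, 2662 and 2635 CPM in the GFP line at 1 h, and 51.2 ± 4.83 CPM in the Nur77 line and 21.9 ± 3.88 CPM in the GFP line at 0 h. Its interaction was -0.47 (adjusted p = 0.221), and -0.73 (adjusted p = 0.00152) without replicate 2. Tnf was higher in the Nur77 line at both times.

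Nr4a1 had 42.4, 9.29, 40.0 and 39.8 CPM in the Nur77 line and 52.0, 63.2, 65.0 and 66.8 CPM in the GFP line at 1 h, lower in the Nur77 line without overlap. Its interaction was -1.01 (adjusted p = 0.236), and -0.71 (adjusted p = 0.0215) without replicate 2, the lowest library. The family members Nr4a2 and Nr4a3 had interactions of 0.17 (adjusted p = 0.701) and -0.85 (adjusted p = 0.413). Cxcl10, a chemokine induced by interferon, had 561, 185, 529 and 574 CPM in the Nur77 line and 104, 105, 95.1 and 98.1 CPM in the GFP line at 1 h, with 3, 4, 12 and 7 counts in the GFP line at 0 h. Its 0 h means were 3.98 ± 0.88 CPM in the Nur77 line and 0.337 ± 0.115 CPM in the GFP line. Its interaction was -1.24 (adjusted p = 0.291), and -0.97 (adjusted p = 0.0252) without replicate 2.

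Ier3, an apoptosis regulator induced by NF-kB, had 280, 585, 241 and 223 CPM in the Nur77 line and 193, 186, 195 and 208 CPM in the GFP line at 1 h, higher in the Nur77 line without overlap. At 0 h it was lower there without overlap, at 15.4 ± 0.513 CPM in the Nur77 line and 20.2 ± 1.98 CPM in the GFP line. Its interaction of 1.15 missed the threshold (adjusted p = 0.0557) and was 0.74 (adjusted p = 4.71e-05) without replicate 2. It was also called without replicate 1, 3 or 4 of that group (adjusted p of at most 0.0345). Atf3, a factor that binds AP-1 partners, had 252, 176, 246 and 226 CPM in the Nur77 line and 468, 481, 511 and 486 CPM in the GFP line at 1 h. At 0 h it averaged 34.3 ± 1.26 CPM in the Nur77 line and 92.9 ± 5.19 CPM in the GFP line. The Nur77 line was thus lower without overlap at both times. Its interaction was 0.33 (adjusted p = 0.111), and 0.43 (adjusted p = 0.00124) without replicate 2. Egr2 had 120 ± 10.2 CPM in the Nur77 line and 157 ± 3.88 CPM in the GFP line at 1 h. At 0 h it had 2.62 ± 0.406 CPM in the Nur77 line and 2.24 ± 0.486 CPM in the GFP line, with overlap. Its interaction of -0.61 missed the threshold (adjusted p = 0.0531). It was called without replicate 1 (adjusted p = 0.02), 3 (0.0411) or 4 (0.0357) of the Nur77 line at 1 h or without GFP line 0 h replicate 2 (0.0257).

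No call was made for Junb (0.10, adjusted p = 0.648), Fosb (-0.05, adjusted p = 0.943), the cytokine brake Socs3 (0.22, adjusted p = 0.28), Il1b (0.04, adjusted p = 0.979), Il6 (-0.35, adjusted p = 0.977), Lif (0.04, adjusted p = 0.973), Ccl2 (0.85, adjusted p = 0.483), Cxcl2 (-0.06, adjusted p = 0.912), Ptgs2 (0.13, adjusted p = 0.93) or the itaconate enzyme gene Acod1 (-0.23, adjusted p = 0.73). For Acod1 the omission of GFP line 0 h replicate 2 gave a call (adjusted p = 0.00805). Il10 and Ifnb1 were not tested, with at most 3 and 6 counts in any of the 16 libraries. A p above the threshold does not show that the responses were alike. Ccl2, for one, had 61.1, 404, 67.8 and 65.3 CPM in the Nur77 line and 202, 229, 221 and 210 CPM in the GFP line at 1 h. At 0 h it averaged 8.77 ± 1.03 CPM in the Nur77 line and 22.8 ± 3.57 CPM in the GFP line. Its interaction turned to -0.35 (adjusted p = 0.141) without replicate 2. Lif had log2 rises of 7.33 in the Nur77 line and 7.28 in the GFP line, and was lower in the Nur77 line without overlap at both times.

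With 1.13% of all genes called, a list of about 20 genes with no call does not stand apart from the background. None of the 20 cytokine genes was called with all libraries (median 0.28), and 3 were lower without replicate 2 (median 0.13). None of 9 cytokine signalling brakes, 16 apoptosis regulators, 22 cell cycle genes or 19 macrophage identity genes was called with all libraries, with medians of 0.02, 0.11, -0.10 and -0.01. Without replicate 2, when 1.82% of all genes were called, 4 apoptosis regulators were higher and 1 cell cycle gene lower. Of 15 alpha-arrestin and fast-falling regulator genes Klf2 and Rgs2 were lower and none higher, with a median of -0.18, and 3 were lower without replicate 2.

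**Figure D5:**
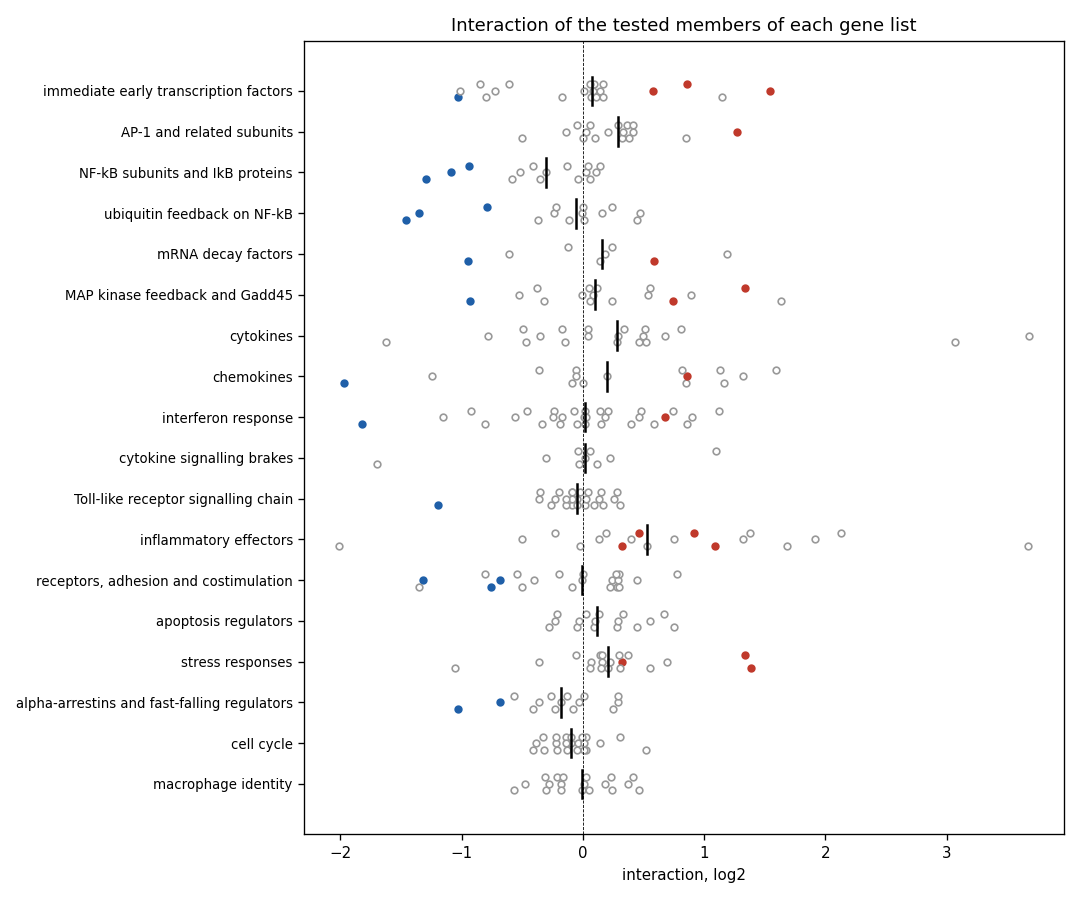
Interaction (log2, horizontal axis) of the tested members of each gene list, 1 point per gene, with the list's median as a black bar. Filled red points were called higher and filled blue points lower, and open points were not called. The inflammatory effectors have 4 red points and no blue one.

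Outside the naming rule, and chosen after the values were seen, are 3 groups of genes. Marcks, a membrane substrate of protein kinase C, had the most negative interaction of all (-3.74, and -3.52 without replicate 2), at means of 4.11 CPM at 1 h and 4.04 CPM at 0 h in the Nur77 line and 2.51 CPM at 1 h and 0.182 CPM at 0 h in the GFP line. Nlrp3, the inflammasome sensor, and Pde4b, a cyclic AMP phosphodiesterase, had interactions of -0.58 and -0.84, called in every setting, and were higher in the Nur77 line at 0 h, by 0.78 and 0.92 on the log2 scale. Their levels were 1019 and 368 CPM in the Nur77 line and 889 and 349 CPM in the GFP line at 1 h.

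The last group is the 15 higher genes whose call was lost without Nur77 line 1 h replicate 2. Among them are Scg2, Nsrp1, Zc3h13, Sarnp, Pinx1, Kin, Paf1, Eif5b, Safb2, Ranbp1, Ythdc1, Cdk11b, Ik and Taf12. Paf1 belongs to a complex that travels with RNA polymerase II, Ythdc1 reads methylated adenosine in RNA and Nsrp1 regulates splicing. Relative to the mean of all 0 h libraries, their median log2 level was 0.25, 0.83, 0.87 and 0.34 in replicates 1 to 4 of the Nur77 line at 1 h, and -0.08 to 0.01 in the Nur77 line at 0 h. It was -0.03 to 0.13 in the GFP line at 1 h and 0.03, -0.06, -0.16 and 0.35 in replicates 1 to 4 of the GFP line at 0 h. Replicates 2 and 3 of the Nur77 line at 1 h were thus high together, and replicate 4 of the GFP line at 0 h stood above its group. For the 60 higher genes that were also called without replicate 2, the same medians were 0.78, 1.01, 0.95 and 0.78 in the Nur77 line and 0.46 to 0.50 in the GFP line at 1 h.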

How the data were processed

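RNA sequencing was done on 24 libraries of the Nur77 and GFP lines. The deposited table holds an estimated count, not normalized, for each of 42361 transcripts, as read from its values. CASAVA 1.8.2, HISAT2 2.1.0 and the build mm10 are named in the submitters' processing notes, while for the counting the tool, annotation and strand setting were not given in the sources used here. All values were multiples of 0.5 (tolerance 1e-09), 53.7% of those above 0 were whole, and they were rounded to whole numbers.

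Symbols came from RefSeq for 42203 transcripts and GENCODE for 65, and 93 were unmatched. The transcript with the highest mean count stood for each of 25160 genes, of which 8193 had several transcripts. Totals over genes were 8134143 to 29275847 per library. The number of libraries and these depths limit precision, most of all for genes near 0 counts.

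Genes were filtered with filterByExpr, scaled by TMM (factors 0.896 to 1.14) and fitted with 6 group means on all 24 libraries in edgeR 4.0.16 (R 4.3.3, robust quasi-likelihood, 18 residual degrees of freedom, common coefficient of variation 0.0979, Benjamini-Hochberg adjustment over 12198 genes). Standard errors are the log2 estimate divided by the root of F. On simulated counts for 12134 genes, 69% of 100 genes with an interaction of 1 and 94% of 100 with 2 were called, and 4.1% of calls had no true change. The simulation had no library that stood apart, as Nur77 line 1 h replicate 2 does, and no deviation shared by the genes of a library. These rates therefore need not hold for the real libraries. The closest replicate pair differed by more than sampling noise (chi-square per degree of freedom 2.27).

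The members and the 22 gene lists (351 genes) were chosen with earlier results of these data known. Named genes were a panel of 28, 12 higher and 12 lower genes ranked by interaction (the smaller of the values with and without Nur77 line 1 h replicate 2) among genes called in both fits and with a group mean of at least 10 CPM, and up to 4 genes of smallest adjusted p per list. A few genes that fall under these rules are not reported here. Alternatives were each of 16 libraries left out, the 16 libraries at 0 and 1 h alone, the same without Nur77 line 1 h replicate 2, a replicate block, DESeq2 1.42.0 and its size factors, 2 other filters, the mean over transcripts, and limma 3.58.1 voom with quality weights.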

Additional observations from a re-analysis of the deposited data

Results flagged for a closer look

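Of the 77 named genes considered here, 37 differed in their LPS response between the lines by the test of the interaction itself. On the log2 scale the response was higher in the Nur77 line for 20 and lower for 17. Many were named because this same test called them, so the count is largely fixed by the naming and nothing is read from it. Over all genes tested 1.13% were called. The interactions, on the log2 scale, were 1.54 for Egr1, 1.39 for Ddit4, 1.34 for Ppp1r15a, 1.27 for Fos, 1.24 for Ccdc85b, 1.09 for Saa3, 1.02 for Adm, 0.99 for Mthfs and 0.90 for Eif4ebp3 and Arhgef3. They were 0.86 for Btg2 and Ccl3, 0.84 for Mylip, 0.74 for Spry2, 0.68 for Ifih1, 0.59 for Zfp36, 0.58 for Cebpb, 0.46 for Clec4e and 0.32 for Sod2 and Herpud1. The lower ones were -1.97 for Ccl22, -1.82 for Irf1, -1.46 for Tnfaip3, -1.35 for Traf1, -1.32 for Gpr84, -1.29 for Nfkbia, -1.19 for Tlr2, -1.09 for Nfkbie and -1.07 for Klhl25 and Ralgds. They were -1.03 for Klf2, -0.95 for Zc3h12c, -0.94 for Relb, -0.93 for Dusp1, -0.79 for Tnip3, -0.76 for Tnfrsf1b and -0.68 for Rgs2.

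In 34 of 305 groups of 4 libraries of a named gene, 1 library lay far from the other 3 by Dixon's test, which chance alone flags in about 1 in 20 groups. In 12 of them it was replicate 2 of the Nur77 line at 1 h. That library was lowest for Nr4a1 (9.29 CPM), Cxcl10 (185 CPM), Mylip (11.4 CPM), Irf1 (35.5 CPM) and Birc3 (121 CPM). It was highest for Ier3 (585 CPM), Il6 (2.76 CPM), Ccl2 (404 CPM), Ptgs2 (523 CPM), Spry2 (23.7 CPM), Ccl3 (1958 CPM) and Rsad2 (8.75 CPM). In the Nur77 line at 1 h, replicate 3 was also highest for Mafk (53.2 CPM) and replicate 1 lowest for C3ar1 (171 CPM).

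In the Nur77 line at 0 h, replicate 4 was highest for Fos (4.93 CPM), Il1b (0.454 CPM), Il6 (0.13 CPM), Il10 (0.0649 CPM) and Klf2 (14.8 CPM). It was lowest for Ralgds (48.6 CPM). Its values for Il6 and Il10 were 2 and 1 counts, against 0 in the rest of the group. Where the rest are at 0 any count is flagged, so the rate of 1 in 20 does not hold there. Replicate 2 was highest for Socs3 (9.63 CPM) and lowest for Tlr2 (229 CPM), and replicate 1 was lowest for Cxcl2 (9.99 CPM). In the GFP line at 1 h, replicate 4 was highest for Il10 (0.112 CPM, 2 counts against 0 in the rest of the group). Replicate 1 of that group was lowest for Ccl5 (7.47 CPM) and highest for Tab2 (203 CPM). In the GFP line at 0 h, replicate 4 was highest for Ppp1r15a (45.9 CPM), Eif4ebp3 (15.4 CPM) and Mthfs (11.5 CPM) and lowest for Tnfrsf1b (73.7 CPM). Replicate 1 was lowest for Ccl2 (17.4 CPM) and Tnip3 (41.9 CPM) and highest for Sod2 (121 CPM), and replicate 2 was highest for Acod1 (4.65 CPM).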

How the results depend on the processing

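No gene called with all libraries had the opposite sign in any of the 25 alternatives, but the number of calls (138, with 75 higher and 63 lower) depended on the setting. It was 47 (22 higher, 25 lower) with the 16 libraries at 0 and 1 h alone, and 499 (283 higher, 216 lower) with DESeq2. Leaving out 1 library gave 74 to 1597 calls, 36 to 858 of them higher and 38 to 739 lower. Replicate numbers showed no clear pairing of the samples: over 24 pairs of same-numbered samples the correlations of deviations from the group mean ran from -0.192 to 0.173, 5 were above 0.1, and 3 of 16 libraries correlated best with their own number. With 4 libraries per group, such correlations cannot exclude that samples of the same number share an origin. With the number as a replicate block 91 genes were called (45 higher, 46 lower). The count was 112 without the 5 h libraries and Nur77 line 1 h replicate 2, 148 with DESeq2 size factors, 96 without a filter, 151 with at least 1 CPM in 4 libraries, 129 with the mean over transcripts and 152 with voom. Of 37 named calls 25 held in every setting. With the 16 libraries alone Saa3, Mylip, Ccl3, Sod2, Dusp1, Tlr2, Nfkbie, Spry2, Ifih1 and Herpud1 were not called, and with the replicate block Tlr2, Spry2 and Ifih1 were not.

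Changes of sign occurred for 8 genes, none of them called with all libraries, and their cause was not tested. Leaving out 1 library gave -0.29 to 0.17 for Fosb, -0.53 to 2.28 for Il1b, -2.09 to 2.12 for Il6, -0.16 to 0.44 for Lif, -0.35 to 1.11 for Ccl2, -0.40 to 0.06 for Cxcl2, -0.44 to 0.35 for Ptgs2 and -0.91 to 0.01 for Acod1. Without the 5 h libraries and Nur77 line 1 h replicate 2, the interaction was 0.05 for Fosb, -0.01 for Lif, -0.33 for Ccl2 and -0.42 for Ptgs2. With voom and quality weights it was -0.02 for Lif, -0.27 for Ccl2 and -0.30 for Ptgs2.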
